A study of Rattus norvegicus with 4 samples.

Results

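A set of 7 genes of cholesterol handling was followed across all libraries of the series, of 17445 rows listed in the files. The 7 members were chosen by name, with no threshold on a measured value but with earlier results of these data known. The shares of all rows given beside their counts are therefore no test of the set. They are Hmgcs1, Sqle, Fdft1, Cyp51 and Dhcr7, which encode enzymes of cholesterol synthesis, Insig1, which encodes a sterol-dependent brake on that synthesis, and Apoe, which encodes the main lipoprotein component of the brain. All 7 had a row in every library and passed the filter of a mean of at least 1 FPKM (fragments per kilobase and per unit of sequencing depth), as did 13542 of the 16375 rows present in all 4 libraries.

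The samples came from the hippocampus of newborn Wistar rats, taken on postnatal day 1. Their dams, 10 weeks old per the labels, received bisphenol A (BPA, a plasticizer studied as an endocrine disruptor) at 5000 µg per kg of body weight, or the vehicle, every day from gestational day 1 until birth. RNA-seq gave 1 library for each of 4 groups (control males, BPA males, control females and BPA females), each made from 3 pooled hippocampi, so no group had a replicate library. The comparison asks whether prenatal BPA changed the transcripts of the newborn hippocampus, and whether it did so in both sexes.

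Cholesterol is built from acetyl-CoA through mevalonate and squalene to lanosterol, and then through a series of sterol intermediates. When sterols are scarce in the membrane of the endoplasmic reticulum, the SCAP protein carries SREBP-2 to the Golgi, where it is cleaved into a factor that raises transcription of the synthesis genes and Insig1. When sterols are abundant, INSIG1 holds SCAP back. The brain makes nearly all of its own cholesterol behind the blood-brain barrier, and astrocytes pass cholesterol to neurons on particles that carry apolipoprotein E.

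The promoters of 4 members are shown because these genes are classic SREBP targets and their transcripts are described together. RefSeq promoters of the rat assembly GRCr8, each 250 bases before and 50 bases after the start of transcription, were found for 5 of the 7 members by symbol. Apoe had 3, which are not printed. Sqle and Fdft1 had none in the table used here. Each line runs 5′ to 3′ on the strand of the gene, and capitals mark every match, on either strand, to the letters CACGTG (E-box), CCAAT (read as ATTGG on the other strand) or GGGCGG (GC box, read as CCGCCC on the other strand).
Hmgcs1, chr2:53382054-53382353, plus strand: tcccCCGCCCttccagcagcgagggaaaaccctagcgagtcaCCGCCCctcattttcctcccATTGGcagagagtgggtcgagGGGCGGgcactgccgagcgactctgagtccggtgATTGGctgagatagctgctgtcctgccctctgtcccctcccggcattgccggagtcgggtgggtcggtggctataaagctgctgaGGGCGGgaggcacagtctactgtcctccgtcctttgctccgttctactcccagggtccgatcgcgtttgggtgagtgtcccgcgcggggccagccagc
Cyp51, chr4:30991443-30991742, plus strand: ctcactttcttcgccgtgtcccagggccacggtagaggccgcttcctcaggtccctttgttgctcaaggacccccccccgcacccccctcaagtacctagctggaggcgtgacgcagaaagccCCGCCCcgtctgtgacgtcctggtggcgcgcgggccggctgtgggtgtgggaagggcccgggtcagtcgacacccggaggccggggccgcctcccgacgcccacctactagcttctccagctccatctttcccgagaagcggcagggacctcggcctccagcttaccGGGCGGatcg
Dhcr7, chr1:208444184-208444483, plus strand: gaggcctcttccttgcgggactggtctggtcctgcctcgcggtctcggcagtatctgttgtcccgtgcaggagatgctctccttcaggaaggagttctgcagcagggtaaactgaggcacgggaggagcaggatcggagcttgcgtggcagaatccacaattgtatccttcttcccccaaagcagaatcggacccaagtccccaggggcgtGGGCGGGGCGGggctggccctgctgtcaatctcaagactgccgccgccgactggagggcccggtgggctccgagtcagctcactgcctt
Insig1, chr4:8057720-8058019, minus strand: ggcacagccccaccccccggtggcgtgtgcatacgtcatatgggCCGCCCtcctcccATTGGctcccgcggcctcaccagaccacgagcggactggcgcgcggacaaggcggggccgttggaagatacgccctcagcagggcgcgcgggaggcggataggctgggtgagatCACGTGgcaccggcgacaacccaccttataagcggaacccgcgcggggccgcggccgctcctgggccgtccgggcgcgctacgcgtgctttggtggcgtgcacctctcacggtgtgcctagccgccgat

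The Hmgcs1 window held 2 CCAAT boxes, which began 188 and 133 bases before the start, and 4 GC boxes. Insig1 held a CCAAT box at 193 bases, a GC box at 206 bases and an E-box at 79 bases before the start. Cyp51 and Dhcr7 held 2 GC boxes each and no CCAAT box, and the boxes of Dhcr7 shared 1 base. A CCAAT box lay in 37.5% of all 33469 promoters of the table and in 13 of the 16 promoters (81.2%) found for a list of sterol synthesis genes. A GC box lay in 33.1% of all promoters and in 14 of those 16. An E-box lay in 6.42% of all promoters and in 1 of those 16 (6.25%). The letters TCACNCCAC, a form of the sterol regulatory element, lay in 1.12% of all promoters, in 0 of those 16 and in none of the windows of the members, which says only that these letters are absent from these windows.

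The libraries were of like depth. The steps between low values give 8656000 to 8928000 fragments per library, and with them 604 to 7237 fragments per member and library. Intervals given here are 95% intervals from these fragments. They cover counting error only, since amplified fragments are not independent molecules, and they do not cover the spread between pups or pools. All 10 hippocampal neuron markers were present, with a summed level of 1695 to 1950 FPKM. The female control library stood apart in markers of the meninges and vessel wall (8 genes, summed at 368 FPKM against 79.8 to 99.98 FPKM in the other libraries), and the male libraries held more of the choroid plexus markers (9 genes, 277 and 719 FPKM) than the female libraries (19.8 and 53.5 FPKM). Of these choroid plexus sums, Ttr alone made up 256.46 and 689.51 FPKM in control and BPA males, and 3.96 and 42.39 FPKM in females. In bulk tissue, fewer cells of a type and less RNA per cell cannot be told apart.

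In all, 6 of the 7 members were lower in BPA than in control in both sexes, with Dhcr7 as the exception. In all rows tested, 31.6% were lower in both sexes, and 29.5% were so among the 4046 rows with a gene ID and a mean of at least 20 FPKM, the range in which the members lie. For the same 6 genes both BPA libraries lay below both control libraries, which held for 19.9% of all rows tested and for 15.8% of the higher-expressed rows. The differences were small. The median difference over the members, BPA minus control on the log2(FPKM + 1) scale, was -0.14 in males and -0.24 in females, against -0.0019 and -0.0376 over all rows tested. None of the 7 passed an adjusted p of 0.05 in limma with 2 BPA against 2 control libraries, as was the case for 0% of all rows. At an unadjusted p under 0.05, Insig1 and Apoe were lower in BPA, and 3.11% of all rows tested were (421 lower and 216 higher rows, or 341 and 284 after quantile normalization). Those calls depended on the setting. Apoe was no longer under 0.05 with no filter, with median centring, and without male control or female BPA, and Insig1 was no longer so without male control, male BPA or female control. With sex as a covariate, which compares BPA with control within each sex, Hmgcs1 was under 0.05 as well, so that 3 members were. In that fit the count rose over all 13542 rows tested too, to 1216 rows under 0.05. Of these, 729 were lower in BPA, against 421 without the covariate.

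**Figure D1:**
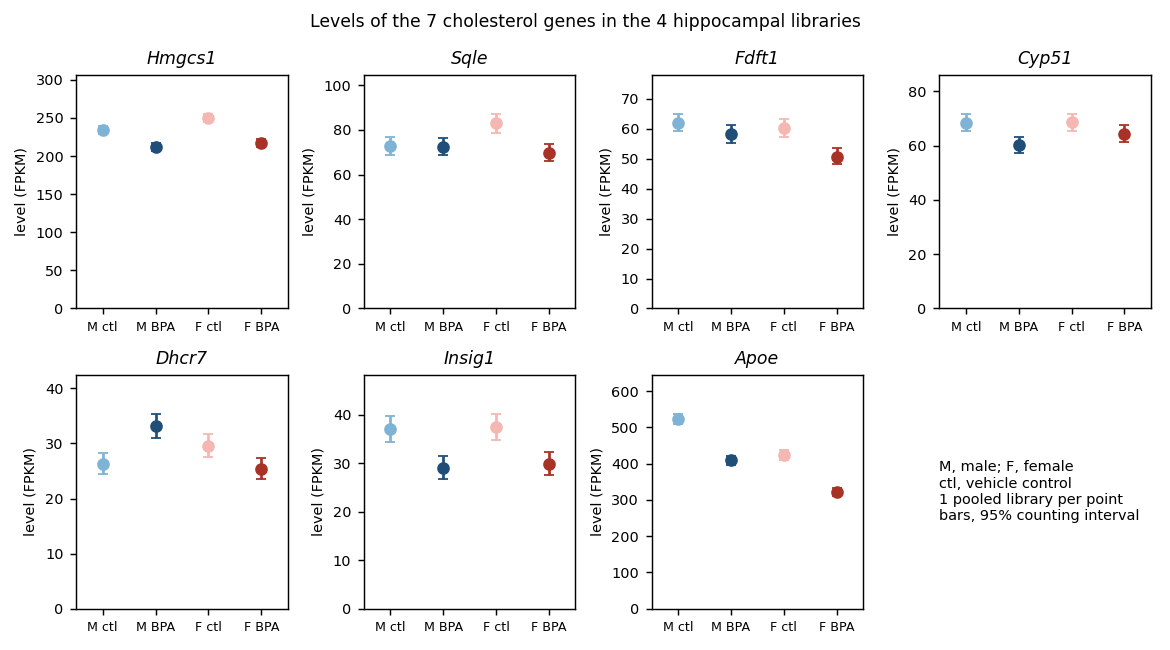
Level of each member in FPKM in control and BPA males (M) and in control and BPA females (F), 1 pooled library per point, with 95% counting intervals as bars and every axis starting at 0. The BPA points lie below both control points for every gene but Dhcr7, whose male BPA point, at 33.18 FPKM, is the highest of its panel.

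Hmgcs1 encodes the cytosolic HMG-CoA synthase, which makes HMG-CoA at the entrance of the mevalonate pathway. Its level was 233.82 and 211.42 FPKM in control and BPA males, and 249.96 and 216.94 FPKM in control and BPA females. Both BPA libraries were below both controls. The ratio of BPA to control was 0.904 (0.874 to 0.936) in males and 0.868 (0.839 to 0.898) in females. Over both sexes the limma difference was -0.17 on the log2 scale (SE 0.0949, limma adjusted p = 0.973).

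Fdft1 encodes squalene synthase, which joins farnesyl units in the first step committed to sterols. It was at 62.05 and 58.16 FPKM in control and BPA males, and 60.12 and 50.70 FPKM in control and BPA females. The male BPA library was only slightly below the female control library, and the groups did not overlap. The ratio was 0.937 (0.875 to 1.0039) in males, an interval that holds 1, and 0.843 (0.784 to 0.907) in females.

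Sqle encodes squalene epoxidase, a rate-controlling oxygen-dependent step. Its level was 72.59 and 72.49 FPKM in control and BPA males, and 82.96 and 69.71 FPKM in control and BPA females. The male libraries were alike, with a ratio of 0.999 (0.924 to 1.08), and the female ratio was 0.840 (0.779 to 0.908). The lack of overlap between the groups therefore hung on 0.138% of the male level, and after quantile normalization the male difference was 0.0040 in place of -0.0020.

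Cyp51 encodes lanosterol 14α-demethylase, the first enzyme to act on the sterol ring after lanosterol is formed. It was at 68.44 and 60.08 FPKM in control and BPA males, and 68.60 and 64.43 FPKM in control and BPA females. Here the male library showed the larger difference, with a ratio of 0.878 (0.820 to 0.940) against 0.939 (0.878 to 1.0044) in females. For Fdft1, Sqle and Cyp51 the limma differences over both sexes were -0.17, -0.12 and -0.14 on the log2 scale, each with a limma adjusted p of 0.973. These values hung on single libraries, with -0.0694 for Fdft1 without female BPA and -0.26 without male BPA, -0.22 for Sqle without male control, and -0.0875 for Cyp51 without male BPA.

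Dhcr7 encodes 7-dehydrocholesterol reductase, which forms cholesterol in the last step of one branch of the pathway and is the gene mutated in Smith-Lemli-Opitz syndrome. Its level was 26.28 and 33.18 FPKM in control and BPA males, and 29.52 and 25.43 FPKM in control and BPA females. The BPA libraries were the highest and the lowest of the 4, so the groups overlapped. The ratio was 1.26 (1.14 to 1.39) in males and 0.861 (0.777 to 0.954) in females, and neither interval held 1. Over both sexes the difference was 0.06 on the log2 scale (SE 0.151, limma adjusted p = 0.988).

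Insig1 was lower in BPA by about the same ratio in both sexes. It was at 37.04 and 29.05 FPKM in control and BPA males, and 37.39 and 29.80 FPKM in control and BPA females. The control libraries were nearly equal, the BPA libraries were nearly equal, and the groups did not overlap. The ratio was 0.784 (0.704 to 0.873) in males and 0.797 (0.715 to 0.887) in females. The limma difference was -0.33 on the log2 scale (SE 0.10, limma adjusted p = 0.973), and the adjusted p ranged from 0.357 with sex as a covariate to 1 over the alternatives.

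Apoe was the most abundant member. Its level was 523.01 and 409.40 FPKM in control and BPA males, and 423.90 and 320.91 FPKM in control and BPA females. The BPA library was the lower one in each sex, and male BPA lay just below female control. The ratio was 0.783 (0.751 to 0.816) in males and 0.757 (0.722 to 0.793) in females. Over both sexes the difference was -0.38 on the log2 scale (SE 0.157, limma adjusted p = 0.973). The adjusted p ranged from 0.292 with sex as a covariate to 1. Leaving out 1 library at a time moved the difference between -0.20, without female BPA, and -0.55, without male BPA.

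Insig1 and Apoe were also the members with a difference of -0.25 or below in each sex, 2 of 7 in males and 2 of 7 in females. The female count was 5 of 7 after quantile normalization, with Hmgcs1 (-0.25), Sqle (-0.27) and Fdft1 (-0.26) just past that value, and 3 of 7 with a pseudocount of 0.1. Of all rows tested, 12.6% were that far below control in males and 21.2% in females. The counting interval of the ratio lay below 1 for 4 members in males and 6 in females, and above 1 for Dhcr7 in males. Over all rows tested it lay below 1 for 13.9% in males and 21.9% in females. Over the rows with a gene ID and a mean of at least 20 FPKM, whose depth is nearer to that of the members, it lay below 1 for 16.6% in males and 18.5% in females, and above 1 for 13.4% in males. Without the female control library, both BPA libraries were compared with male control in limma. The log2 differences were -0.13 for Hmgcs1, -0.0298 for Sqle, -0.19 for Fdft1, -0.14 for Cyp51, 0.14 for Dhcr7, -0.32 for Insig1 and -0.53 for Apoe. The 6 genes without overlap must stay so when a library is left out, so their count is no check of stability.

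Because FPKM is per length of gene model, the levels of the members can be ranked within a library. In the control libraries and in female BPA the order was Apoe, Hmgcs1, Sqle, Cyp51, Fdft1, Insig1 and Dhcr7. In male BPA, Dhcr7 (33.18 FPKM) stood above Insig1 (29.05 FPKM). Cyp51 and Sqle lay close together in male control, at 68.44 and 72.59 FPKM, and Cyp51 and Fdft1 did so in male BPA, at 60.08 and 58.16 FPKM. With 1 library per group, neither neighbouring pair can be separated from the spread between pools. All members were well expressed, from the 75.6th percentile of the rows of a library (Dhcr7 in female BPA) to the 99.4th (Apoe in male control).

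The size of the difference between BPA and control was set side by side for the sexes. Dhcr7 differed most, with the male log2 ratio above the female one by 0.55 (0.349 to 0.754). The gap was 0.25 (0.0933 to 0.405) for Sqle and 0.15 (0.00978 to 0.295) for Fdft1, and the intervals of Hmgcs1, Cyp51, Insig1 and Apoe held 0. These intervals are of counting error between single pools. A model with a term for the difference between the sexes leaves 0 residual degrees of freedom, so the difference was not tested.

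**Figure D2:**
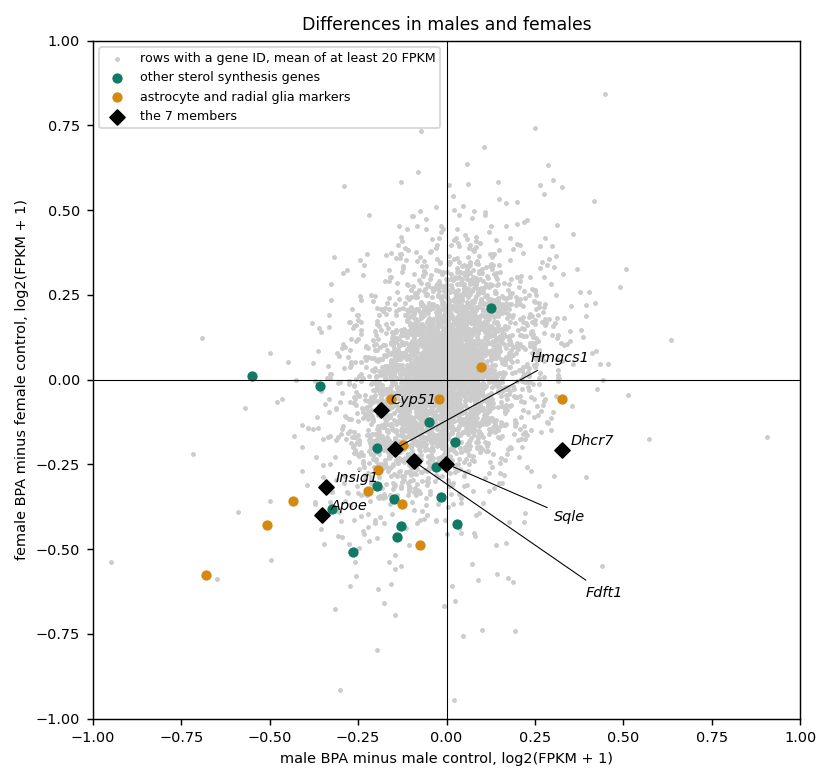
Difference between BPA and control on the log2(FPKM + 1) scale in males (horizontal) and females (vertical) for the 7 members (diamonds), the other sterol synthesis genes (green), the astrocyte and radial glia markers (orange) and the 4046 rows with a gene ID and a mean of at least 20 FPKM (grey, 7 of them outside the axes). Dhcr7 lies at 0.33 in males and -0.21 in females, and the other 6 members lie below 0 on both axes.

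Male and female libraries were also compared with each other. Apoe was higher in males in both treatments, by a ratio of 1.23 (1.18 to 1.29) in control and 1.28 (1.22 to 1.34) in BPA. Its limma difference, male minus female, was 0.33 on the log2 scale (SE 0.162, limma adjusted p = 0.532). With 1 library left out, this difference ranged from 0.13, without female BPA, to 0.53, without female control. Fdft1 was also higher in males in both treatments, at ratios of 1.03 (0.964 to 1.11) and 1.15 (1.07 to 1.23). Hmgcs1, Cyp51 and Insig1 were lower in males in both, and Sqle and Dhcr7 were lower in males in control and higher in BPA. None of the 7 passed an adjusted p of 0.05, where 0.00738% of all rows tested did (1 row). At an unadjusted p under 0.05, 916 rows were higher and 526 lower in males, or 846 and 724 after quantile normalization. The choroid plexus markers, given above, were also higher in males in both treatments (Ttr, which marks that tissue, was at 256.46 and 689.51 FPKM in males and at 3.96 and 42.39 FPKM in females), and their part in the Apoe values was not tested.

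The rest of the pathway was read from a list of 21 sterol synthesis genes, all found and tested, which holds 5 of the members. In BPA 16 were lower in both sexes, 1 was higher in both and 4 went in opposite directions. The groups did not overlap for 14 lower genes and 1 higher gene. Among all rows tested, 31.6% were lower in both sexes and 19.9% lay lower without overlap. Of the 16 genes that are not members, 12 were lower in both sexes and 10 lay lower without overlap. Their median difference was -0.14 in males and -0.29 in females. None passed an adjusted p of 0.05 in limma, and 1 was under an unadjusted p of 0.05.

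That gene was Lss, lanosterol synthase, which closes the sterol ring just before Cyp51 acts. It was at 29.91 and 24.75 FPKM in control and BPA males, and 29.29 and 20.30 FPKM in control and BPA females, so both BPA libraries were clearly the lower ones (limma difference -0.39, SE 0.128, limma adjusted p = 0.973). Just before Fdft1 in the pathway, Fdps, farnesyl diphosphate synthase, was at 148.14, 138.74, 163.57 and 138.64 FPKM in the same order. Its ratios, 0.937 in males and 0.848 in females, were close to those of Fdft1. Acat2, Pmvk, Msmo1, Nsdhl, Hsd17b7, Ebp and Sc5d were among the genes lower without overlap, Mvk was lower in both sexes with overlap, and Lbr was higher in both. Mvd, Idi1 and Tm7sf2 went in opposite directions, as Dhcr7 did.

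**Figure D3:**
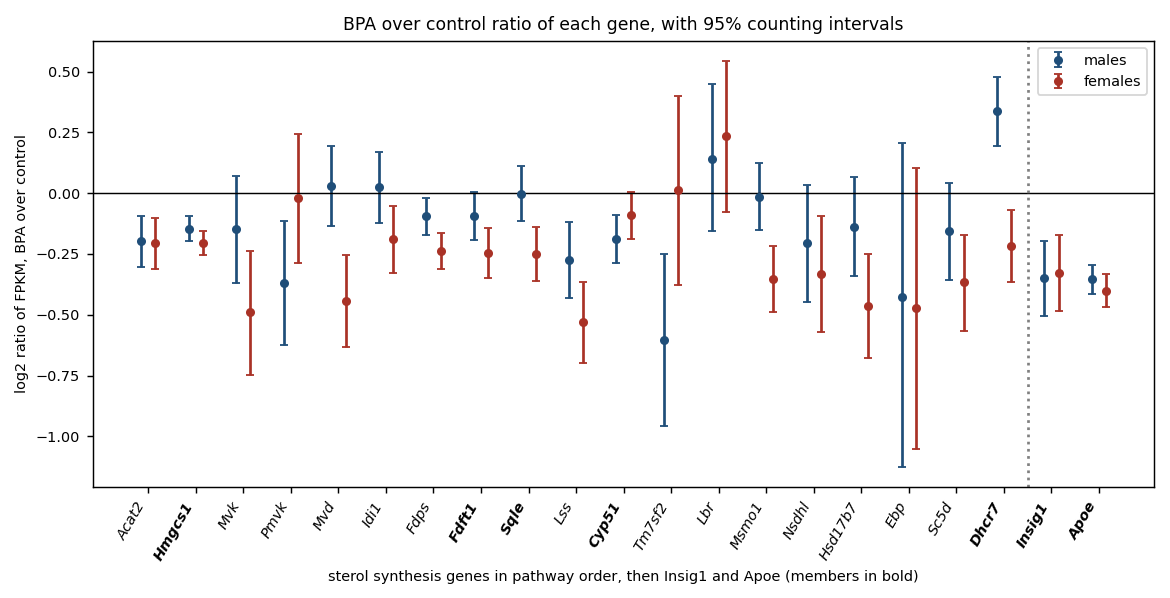
Log2 ratio of FPKM, BPA over control, for 19 sterol synthesis genes in pathway order, then Insig1 and Apoe, in males (blue) and females (red), with 95% counting intervals and members in bold. Most points lie below 0, with intervals clear of 0 for 7 of 19 synthesis genes in males and 14 of 19 in females (13.9% and 21.9% of all rows tested), and the male point of Dhcr7 is the only one of a synthesis gene with its interval above 0.

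The genes that sense sterols and activate the pathway showed no common direction. Of 14 listed SREBP control genes, 13 were found and 12 were tested. Among these, 4 were lower in both sexes (Srebf1, Scap, Insig1 and Mylip), 4 were higher in both (Srebf2, Insig2, Mbtps1 and Ubxn4) and 4 went in opposite directions (Mbtps2, Rnf139, Erlin1 and Erlin2). Insig1 was the only one with an unadjusted limma p under 0.05. Srebf2, which encodes SREBP-2 itself, was at 43.17 and 46.42 FPKM in control and BPA males, and 36.65 and 42.37 FPKM in control and BPA females. It was higher in BPA in each sex, with overlap between the groups because both male libraries were above both female ones (limma difference 0.15, SE 0.121, adjusted p = 0.973). Insig2, the relative of Insig1, was at 6.77, 6.91, 8.21 and 8.60 FPKM in that order, with little difference between BPA and control.

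Apoe was then read beside the other genes of lipoproteins and uptake. Of 17 listed, 16 were found and 15 tested, with 8 lower in BPA in both sexes, none higher in both and 7 in opposite directions. The groups did not overlap for 7 of the lower genes. The shares of all rows tested were 31.6% lower in both sexes and 19.9% lower without overlap. Apoe and Lipa were among 3 genes under an unadjusted limma p of 0.05, with no gene under an adjusted one. Lipa, the lysosomal lipase that frees cholesterol from esters taken up by the cell, was at 10.38 and 8.32 FPKM in control and BPA males, and 10.51 and 7.60 FPKM in control and BPA females, with BPA lower in each sex (limma adjusted p = 0.973).

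Astrocyte and radial glia markers were also mostly lower in BPA. Of 12 such genes, 10 were lower in BPA in both sexes and 9 of these had no overlap (31.6% and 19.9% of all rows tested). Under an unadjusted limma p of 0.05 were 4 genes (Slc1a3, Slc1a2, Aqp4 and Glul). Sox9 was higher in both sexes, at 6.38 and 6.89 FPKM in control and BPA males, and 5.03 and 5.19 FPKM in females. Aldh1l1 was higher in BPA males, with a ratio of 1.28 (1.10 to 1.49), against 0.958 (0.813 to 1.13) in females. The summed level of the 12 markers was 1885 and 1937 FPKM in the control libraries and 1697 and 1708 FPKM in the BPA libraries. Fabp7, a radial glia marker, made up much of this sum (884 FPKM in male control), and without it the list was lower by 9.70% in males and 18.4% in females. Aqp4, the water channel of astrocyte endfeet, was at 35.76 and 24.86 FPKM in control and BPA males, and 37.74 and 27.75 FPKM in control and BPA females. No marker of the list was at 0, the lowest value being 3.92 FPKM for Hes5. The oligodendrocyte lineage markers (8 genes, 4 of them lower in both sexes) were summed at 119 to 145 FPKM in control and 99.4 to 111 FPKM in BPA, and none was at 0. Olig1 was the largest part of these sums, at 76.91 and 50.79 FPKM in control and BPA males, and 52.49 and 39.83 FPKM in females. The microglia markers (10 genes), whose cells also express Apoe, were summed at 61.9 to 74.0 FPKM in control and 62.9 to 71.4 FPKM in BPA, with no shift in 1 direction. The part of any of these cell types in the values of Apoe, Insig1 or the synthesis genes was not tested.

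**Figure D4:**
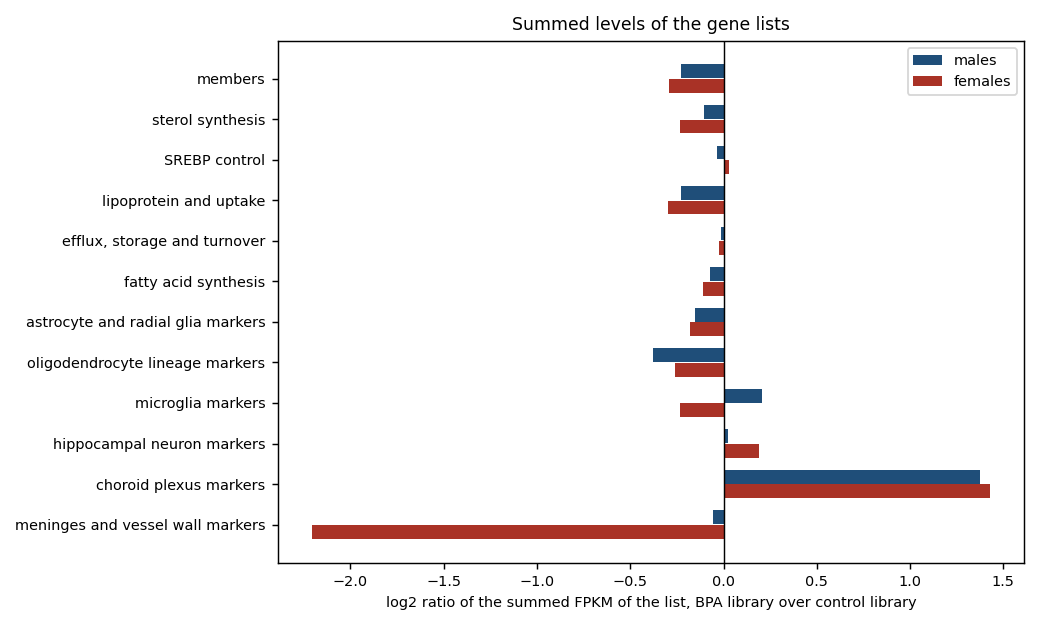
Log2 ratio of the summed FPKM of each gene list, BPA library over control library, in males (blue) and females (red), each bar being 1 library against 1 library. The summed level of the members was 14.6% lower in males and 18.3% lower in females, and Apoe made up much of it (523.01 of 1023.23 FPKM in male control). The astrocyte and radial glia markers were 10.0% and 11.9% lower (9.70% and 18.4% without Fabp7). The bars of the choroid plexus and of the female meninges markers are far longer than those of the lipid lists. The choroid plexus sums were mostly Ttr in all libraries but female control. In females every marker of that list but Ttr and Otx2 was lower in BPA, several of them at under 1 FPKM.

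The genes of the lipid lists with the most similar profile over the 4 libraries were found for each member, among 66 genes, by the root mean square difference of log2(FPKM + 1) profiles centred on their own mean. Hmgcs1 was nearest to Fdps (0.0216), Sqle to Soat1 (0.0270), Cyp51 to Scd2 (0.0279) and Insig1 to Acss2 (0.0407). Dhcr7 and Apoe had no profile as near, with Lrp1 at 0.0788 and Mvk at 0.0797. Each profile has 4 points, which are single libraries.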

How the data were processed

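RNA of hippocampal pools was sequenced in 4 libraries, and the authors deposited 1 FPKM value per gene and library to 2 decimals, with 0.01 as the lowest. The submitters' processing notes name HISAT 0.1.6, Bowtie2 2.2.5, RSEM and the build rn6, and the annotation is not given in the sources used here. RSEM estimates share fragments among similar genes. The series holds 1 pooled library per group and no replicate library. In the BPA fit without a covariate, the 2 libraries of a treatment differ in sex. The spread behind its p-values therefore includes the difference between the sexes. Likewise, the fit of males against females includes the difference between treatments. An exact permutation test of 2 against 2 libraries cannot go below p = 0.333.

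Files were joined on row names. The files of 1 sex alone held 503 rows (males) and 567 rows (females), which were not compared. A pseudocount of 1 FPKM was added before taking log2, which understates the differences of low genes, and a row had to reach a mean of 1 FPKM. BPA was compared with control, and males with females, in R 4.3.3 with limma 3.58.1 (trended eBayes, no covariate), with Benjamini-Hochberg adjustment over all 13542 rows tested. Within a sex, 2 libraries were compared with no test. Fragments per library were estimated from the steps between low values, of which 94.4% to 98.4% lay within 0.15 of a whole fragment. Other steps used pandas 2.3.3, numpy 2.4.6, matplotlib 3.10.9 and scipy 1.17.1 in Python 3.11.15. The limma fit and the depth estimate were tested on simulated data.

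The members and the gene lists were chosen with earlier results of these data known. The genes named are all 7 members, the genes of the sterol synthesis and SREBP control lists, the 3 genes of each other lipid list with the largest mean absolute difference of 1 sign in both sexes, and the nearest profile of each member. Fdps, Lss, Srebf2 and Insig2 were picked for full values, and single markers were named, after their values were seen. New gene models were left apart, and 333 of them were added to the row of their gene in an alternative, with none for a member. Alternatives were quantile normalization, median centring, a minimum mean of 5 FPKM or no filter, a pseudocount of 0.1, a covariate, and leaving out each library. Single values of some genes that the lists hold are not reported here. The promoter table of GRCr8 was used for sequence only.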

Additional observations from a re-analysis of the deposited data

Results flagged for a closer look

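Among the 7 members and the genes of the sterol synthesis and SREBP control lists, 8 genes had BPA differences of opposite sign in the sexes, with 1 library per group, so that the difference between the sexes was not tested. Differences are BPA minus control on the log2(FPKM + 1) scale. Dhcr7 was at 0.33 in males and -0.21 in females, and in each sex its counting interval lay clear of 0. Mvd, which makes isopentenyl diphosphate, was at 0.0284 in males and -0.43 in females, and Idi1, its isomerase, was at 0.0242 and -0.18. Tm7sf2, a sterol reductase, was at -0.55 in males and 0.0101 in females. Mbtps2, a protease that cleaves SREBP, was at 0.0564 and -0.19. Rnf139, a ubiquitin ligase of the endoplasmic reticulum, was at -0.38 and 0.25, and its counting intervals also lay clear of 0. Erlin1 and Erlin2, which form a complex in that membrane, were at -0.0579 and 0.0174 and at 0.0483 and -0.0934. For Mvd, Idi1, Tm7sf2, Mbtps2, Erlin1 and Erlin2 the counting interval of the ratio held 1 in at least 1 sex. Their opposite signs are thus not clear of counting error. The share of all rows with opposite signs is not given here.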

How the results depend on the processing

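Of 238 alternative values for single members, 10 limma differences changed sign and 4 differences within a sex moved by more than the counting error. No member reached an adjusted p of 0.05 in limma for BPA under any alternative run, and 0 to 3 members were under an unadjusted p of 0.05, against 2 as reported. The number of all rows under an adjusted p of 0.05 was 0 with the design reported, 2 with sex as a covariate and 1 with new gene models summed. Between males and females it was 1 as reported, 21 with a mean of at least 5 FPKM, 55 with treatment as a covariate, 2 with median centring, 10 with new gene models summed, and 1 to 2 when 1 library was left out. With 1 library left out, the Dhcr7 difference of BPA from control ranged from -0.127 to 0.24 and was below 0 without male control (-0.0221) or male BPA. The male minus female difference ranged from -0.17 to 0.0353 for Hmgcs1, -0.19 to 0.0566 for Sqle, -0.00109 to 0.24 for Fdft1, -0.14 to 0.0412 for Cyp51, -0.0581 to 0.27 for Dhcr7 and -0.19 to 0.15 for Insig1. Its sign turned without male BPA for Hmgcs1 (0.00586), Cyp51, Dhcr7 and Insig1, without female control for Hmgcs1, Sqle and Insig1 (0.13), and without female BPA for Fdft1. Quantile normalization gave -0.55 for Apoe in females, -0.09 and -0.25 for Hmgcs1 in males and females, and 5 members lower in both sexes in place of 6, since Sqle in males lay at about 0. Median centring gave -0.15 for Hmgcs1 in females. With 1 library left out, the members whose groups did not overlap numbered 6 to 7, and the sterol synthesis genes 15 to 18. These counts cannot fall when a library is removed, so they do not test stability. The matching share of all rows is not given here. With quantile normalization the sterol synthesis genes without overlap numbered 11. Median centring, the counts with a library left out, the counts of sterol synthesis genes, the counts of members past a difference of -0.25 or an unadjusted p, and the glial sum without Fabp7 were chosen after seeing the data. The labels give no number that pairs libraries, and the pairing they do allow, BPA with control within sex, is the fit with sex as a covariate. The causes of these changes were not tested. With 1 library per group, depth limits the counting error alone, and the spread between litters is unknown.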

Other observations

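Lipid genes outside the pathway were read from further lists. Of 11 fatty acid synthesis genes, 7 were lower in BPA in both sexes, all 7 without overlap of the groups, and 1 was higher in both. Among all rows tested, 31.6% were lower in both sexes and 19.9% lay lower without overlap. Scd and Acss2 were under an unadjusted limma p of 0.05 and neither was under an adjusted one. Scd, stearoyl-CoA desaturase, was at 8.38 and 5.49 FPKM in control and BPA males, and 8.36 and 6.15 FPKM in control and BPA females (limma adjusted p = 0.973). Acss2, which makes acetyl-CoA from acetate, was at 13.36, 11.01, 13.67 and 10.40 FPKM in the same order (limma adjusted p = 0.973). Me1, malic enzyme, was at 23.45, 18.00, 22.36 and 20.15 FPKM. The BPA libraries were below the control libraries for all 3.

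The genes of cholesterol efflux, storage and turnover showed no common direction. Of 11 listed, 8 were tested, with 4 lower in both sexes, 2 higher in both and 2 in opposite directions, and none had an unadjusted limma p under 0.05. Abcg1, an efflux transporter, was at 10.49 and 10.62 FPKM in control and BPA males, and 9.09 and 13.34 FPKM in control and BPA females, with ratios of 1.01 and 1.47 whose difference was not tested. Abcg4, its relative, was at 12.96, 11.03, 11.85 and 9.79 FPKM, lower in BPA in each sex. Cyp7b1, an oxysterol hydroxylase, was at 4.13, 2.73, 4.54 and 4.18 FPKM, with overlap between the groups.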
